A study of Mus musculus with 65 samples.

Results

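Young mouse L1 elements were followed by subfamily and by single copy in all 65 RNA sequencing libraries of the study. The members were the rows of the repeat count table whose name begins with L1Md and whose class and family are LINE and L1, and they numbered 126672 of 3725827 repeat rows. They fall into 6 subfamilies, with 16844 copies of L1Md_A, 64898 of L1Md_F2, 16146 of L1Md_F3, 4016 of L1Md_F, 1080 of L1Md_Gf and 23688 of L1Md_T. Of these copies 55344 (43.7%) had counts in at least 1 library, from 28.3% of L1Md_F copies to 60.4% of L1Md_T copies. No copy was made a member for its values, whereas the single copies named below were picked by their counts or changes.

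L1 elements are retrotransposons that spread by copying their RNA into DNA with their own reverse transcriptase and endonuclease. The L1Md subfamilies are the evolutionarily young mouse L1s, and A, T and Gf are the ones that hold copies still able to move, whereas most copies of every subfamily are truncated at the 5′ end. Cells keep them silent with DNA methylation and histone H3K9 methylation, the mark that Suv39h1 writes in heterochromatin. Nucleic acids from retroelements can be sensed as foreign, which is why their level is of interest in innate immune cells. LPS is the bacterial ligand of TLR4, which signals through the adaptors MyD88 and TRIF (gene Ticam1), and the TRIF arm leads to type I interferon, which acts through the receptor that Ifnar1 encodes.

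Experiments of 3 kinds were measured by polyA RNA sequencing in 19 groups. Experiment 2 held unstimulated bone marrow derived dendritic cells of C57BL/6 mice, with 3 libraries each of Suv39h1KO, IfnarKO, Suv39h1KO_IfnarKO and wild-type (WT) cells. Experiment 3 held the same cell type at 0, 2 and 4 h of LPS at 100 ng/mL, with 3 libraries per time of MyD88KO cells, 3 per time of cells labelled TrifKO, and 6, 5 and 6 of WT cells. Experiment 5 held RAW264.7 cells, a mouse macrophage line with the strain label BALB/c, at 0 and 2 h of LPS, with 3 libraries per time of cells that carried gRNA_1, gRNA_2 or gRNA_Ctrl. The labels do not say what these guides target, or how the cells were edited, and the titles call them DC while the cell type label says RAW264.7. The knockouts are given by genotype only, without the allele, and the age and sex of the mice are not given in the sources used here. The series text speaks of 3 biological replicates per condition, and up to 2 WT libraries of 1 time share a cohort number, so p-values that count each WT library as separate may be too small. By the library numbers in their titles the libraries of experiment 3 form a low set (WT libraries L1 to L3 and all MyD88KO libraries) and a high set (WT libraries H1 to H3 and all libraries labelled TrifKO), a split that the labels do not call a batch.

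Libraries held 36879570 to 95292653 counts on genes and 25663 to 71309 counts on L1Md copies, which were 1.33% to 2.08% of all counts on transposable elements. The dendritic cells expressed Itgax, Ccr7 and H2-Ab1 together with the macrophage genes Csf1r and Lyz2, whereas Flt3 and H2-Ab1 were at 0 in all 3 unstimulated control-guide RAW264.7 libraries and Csf1r was at a median of 2078 CPM (counts per 1000000 counts on genes). Other listed markers, among them Flt3 and Zbtb46 in dendritic cells, Adgre1, Cd68 and markers of other cells, are not reported here. The cell types therefore rest on the labels. Targets were checked in every library. Suv39h1, the H3K9 methyltransferase, stood at 0.111 to 0.357 CPM in Suv39h1KO libraries and 42.8 to 61.1 CPM in WT libraries. Ifnar1 stood at 133.9 to 156.3 CPM in IfnarKO libraries and 170.8 to 199.5 CPM in WT libraries, and Myd88 at 55.95 to 60.5 CPM in MyD88KO libraries and 86.9 to 93.2 CPM in WT libraries at 0 h. Reads of these transcripts were thus still counted in the knockouts, at a lower level. Ticam1 stood at 35.15 to 37.15 CPM at 0 h in libraries labelled TrifKO, against 31.3 to 44.5 CPM in WT libraries, so its transcript was not lower there. With the allele not given, this level does not settle the genotype. Of the 9 libraries labelled TrifKO it was low in replicate 3 at 2 h (2.98 CPM) and replicate 3 at 4 h (2.46 CPM). Replicate 3 at 0 h stood at 37.15 CPM. Replicates 1 and 2 stood at 43.03 and 48.52 CPM at 2 h, and at 42.3 and 36.54 CPM at 4 h. Libraries with this label were thus not alike in Ticam1, also within replicate 3, and whether they share 1 genotype was not tested. The directions given below for this genotype rest on the label.

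Levels are given as CPM, the counts on L1Md copies per 1000000 counts on genes of the same library. Summed over all copies, L1Md stood at 701.5 ± 133 CPM in unstimulated WT cells, 929.6 ± 266 CPM at 2 h and 980.9 ± 180 CPM at 4 h of LPS (SD, n = 6, 5 and 6). The lowest, median and highest libraries were 467.9, 739.5 and 853.5 CPM at 0 h, then 548.3, 994.6 and 1192 CPM at 2 h. At 4 h they were 785.1, 920.6 and 1254 CPM, so the ranges at 4 h and 0 h overlapped. The ratio of the means at 4 h and 0 h was 1.40, and 1.19 when L1Md counts were taken as a share of all counts on repeats. The 2 library sets differed, with means of 612.7, 664.0 and 847.9 CPM at 0, 2 and 4 h in the low set and 790.3, 1107 and 1114 CPM in the high set. Within each set the means increased with time, and the WT libraries of a set at 4 h all lay above those of the same set at 0 h.

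MyD88KO cells had 595.5 ± 41.9, 676.2 ± 45.2 and 792.4 ± 57.1 CPM at 0, 2 and 4 h, and cells labelled TrifKO had 777.5 ± 46.8, 777.6 ± 31.3 and 836.7 ± 63.1 CPM (SD, n = 3 each). In experiment 2 the sum was 677.1 ± 104 CPM in Suv39h1KO, 742.6 ± 32.8 CPM in IfnarKO, 671.5 ± 89.1 CPM in Suv39h1KO_IfnarKO and 716.9 ± 163 CPM in WT cells, and the groups overlapped. By cohort number, Suv39h1KO_IfnarKO cells had 582.3, 671.9 and 760.5 CPM in cohorts 1, 2 and 3, below IfnarKO cells of the same cohort each time (707.0, 749.0 and 771.7 CPM), and Suv39h1KO cells had 566.8, 691.1 and 773.5 CPM, below WT cells in cohort 2 only (555.9, 881.1 and 713.7 CPM). RAW264.7 cells had 940.5 ± 66.1 CPM at 2 h and 745.3 ± 37.6 CPM at 0 h with gRNA_Ctrl. The other guides gave 832.2 ± 25.3 and 654.0 ± 20.4 CPM at 2 h and 0 h (gRNA_1), and 850.1 ± 43.1 and 659.7 ± 34.1 CPM (gRNA_2).

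**Figure D1:**
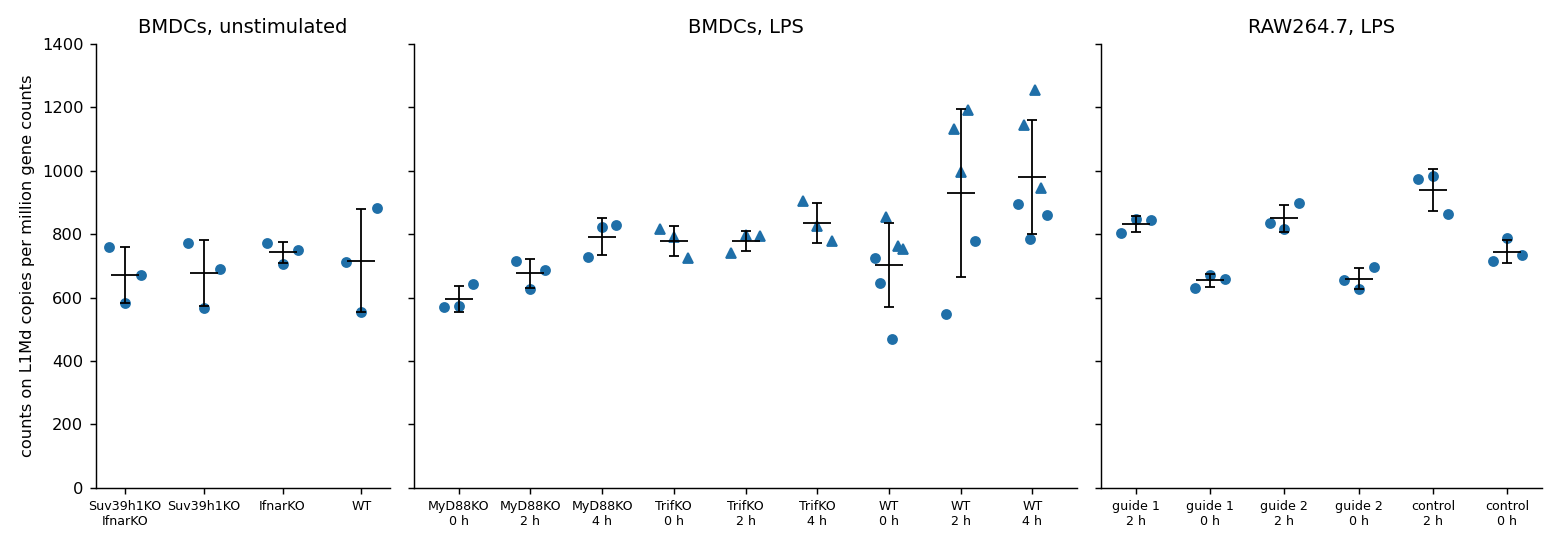
Summed level of all L1Md copies in CPM (vertical axis) for each library in each of the 19 groups; points are libraries, triangles those of the high set of experiment 3, black lines are means and bars SD. WT libraries of the high set lie above those of the low set, and the groups of experiment 2 overlap.

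L1Md_F2 held 51.8% of L1Md counts in unstimulated WT cells of experiment 3 and 59.2% in unstimulated control-guide RAW264.7 cells. Its mean level in those WT cells was 363.1 ± 67.8 CPM, ahead of L1Md_T (137.0 ± 21.3), L1Md_A (93.5 ± 22.8), L1Md_F3 (90.1 ± 16.2), L1Md_F (13.3 ± 3.73) and L1Md_Gf (4.49 ± 2.20, SD, n = 6). L1Md_A and L1Md_F3 did not differ beyond their spread. Across libraries the range of L1Md_T (100.2 to 164.5 CPM) overlapped with that of L1Md_A (55.4 to 117.0 CPM), and L1Md_F (from 7.08 CPM) just met L1Md_Gf (up to 7.38 CPM). Within every one of the 6 libraries, however, L1Md_T stood above L1Md_A and L1Md_F above L1Md_Gf, so these overlaps are between libraries only. These are levels of a whole subfamily, and are not adjusted for the number or length of its copies.

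All 6 young subfamilies were higher after LPS in WT dendritic cells, and L1Md_Gf changed most. Tests were made with edgeR's quasi-likelihood test on subfamily sums, scaled by the totals and TMM factors of the gene table, with Benjamini-Hochberg adjustment over all subfamilies and 0.05 as the threshold. L1Md_Gf stood at 21.1, 32.6 and 48.02 CPM at 4 h (lowest, median and highest library) and at 1.59, 4.81 and 7.38 CPM at 0 h. Its ranges did not overlap, and its log2 fold change was 3.53 ± 0.39 (SE, adjusted p = 3.4e-09). L1Md_F stood at 26.2, 34.3 and 42.1 CPM at 4 h, against 7.08, 13.5 and 18.2 CPM at 0 h. It too had ranges apart, with a log2 fold change of 2.01 ± 0.22. For L1Md_F2 (1.14 ± 0.17), L1Md_T (1.03 ± 0.14), L1Md_F3 (0.99 ± 0.16) and L1Md_A (0.96 ± 0.15) the log2 fold changes lay near 1 and the libraries of the 4 h and 0 h groups overlapped in CPM.

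All 6 passed at 4 h, where 65.7% of the 945 subfamilies of transposable elements tested did, among them 95 of 123 other L1 subfamilies. The median log2 fold change at 4 h was 1.09 over the 6 young subfamilies and 0.50 over all subfamilies. By size of change L1Md_Gf ranked 10, L1Md_F 63, L1Md_F2 179, L1Md_T 203, L1Md_F3 217 and L1Md_A 225 of 945. At 2 h all 6 also passed, against 44.6% of all subfamilies, with log2 fold changes of 2.48 ± 0.39 for L1Md_Gf, 0.85 ± 0.23 for L1Md_F, 0.85 ± 0.17 for L1Md_F2, 0.81 ± 0.15 for L1Md_T, 0.76 ± 0.16 for L1Md_A and 0.49 ± 0.16 for L1Md_F3. In the low set alone L1Md_F3 (0.11) and L1Md_F (0.40) did not pass at 2 h, and in each set alone all 6 passed at 4 h. In bulk RNA, fewer cells with a transcript and less of it per cell cannot be told apart.

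The size of these changes depends on the scaling. TMM factors, which set the typical gene to no change, ran from 1.15 to 1.25 in WT libraries at 0 h and from 0.72 to 0.83 at 4 h. With gene totals alone, a choice made after the data were seen, the median gene would have a log2 fold change of -0.71 at 4 h and -0.43 at 2 h in WT cells, and the median subfamily -0.15 and -0.11. All 6 young subfamilies stayed above 0 under that scaling. At 4 h 5 of 6 passed, from 2.86 for L1Md_Gf to 0.33 for L1Md_F3, while L1Md_A (0.31) did not. At 2 h 3 of 6 passed, L1Md_Gf (2.06), L1Md_F2 (0.44) and L1Md_T (0.41).

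**Figure D2:**
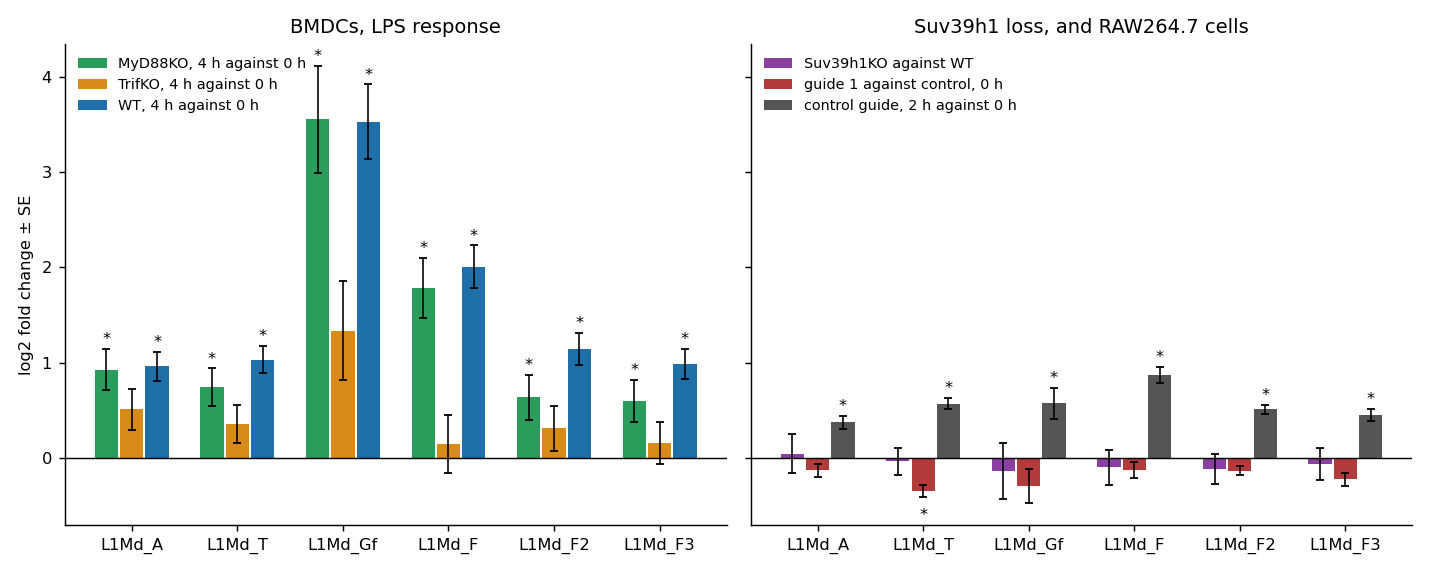
Log2 fold change of each L1Md subfamily (vertical axis) by comparison, in dendritic cells after LPS (first panel) and for Suv39h1 loss and RAW264.7 cells (second panel), with bars for the fitted value and error bars for its SE; a star marks an adjusted p under 0.05. L1Md_Gf and L1Md_F stand out in WT and MyD88KO cells at 4 h, at 3.53 and 2.01 in WT, the bars of cells labelled TrifKO carry no star, and in the second panel those of Suv39h1KO carry none while L1Md_T is lower with gRNA_1 by 0.34.

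Counts were concentrated on few copies. In WT cells at 4 h a single copy, L1Md_Gf copy 4099312, held 91.9% of all L1Md_Gf counts, against 74.1% at 0 h (copies are named by subfamily and the running number the table gives them). L1Md_F copy 698725 held 64.5% of L1Md_F at 4 h and 33.2% at 0 h. L1Md_F2, with far more copies, had 16.7% of its counts on L1Md_F2 copy 2974425 at 4 h, and 2.55% on its leading copy at 0 h. The share of the leading copy was not higher in every subfamily, at 19.7% at 4 h and 28.3% at 0 h in L1Md_A and 11.05% and 11.4% in L1Md_T, where in both another copy led at each time. In RAW264.7 cells with gRNA_Ctrl the leading L1Md_T copy was another one, copy 4492153, with 26.7% of L1Md_T counts at 2 h and 30.3% at 0 h.

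Single copies carried much of the net difference. For L1Md and for each subfamily, the copy with the largest rise in the same comparison was taken. A large share, and a smaller ratio without that copy, thus follow in part from the choice. Shares are of a net of rises and falls and can exceed the whole, as for L1Md_F3 copy 2306036 at 2 h (174.4%). The mean summed level of WT cells was 279.4 CPM higher at 4 h than at 0 h, and L1Md_F2 copy 2974425 alone gained 84.2 CPM, which is 30.1% of that sum and 58.2% of what L1Md_F2 gained. At 2 h the same copy made up 45.8% of the gain of L1Md and 79.97% of that of L1Md_F2. L1Md_Gf copy 4099312 made up 94.7% of the gain of its subfamily at 4 h, L1Md_F3 copy 2272948 89.4% and L1Md_F copy 698725 83.9%. Shares were lower for L1Md_A, at 47.8% on copy 4099313, and for L1Md_T, at 37.7% on copy 2268701. Without its copy of largest rise, the ratio of mean CPM at 4 h to that at 0 h was 2.31 in place of 7.25 for L1Md_Gf, 1.37 in place of 2.54 for L1Md_F, 1.17 in place of 1.40 for L1Md_F2 and 1.03 in place of 1.25 for L1Md_F3. These ratios are of CPM without TMM factors, and are therefore smaller than the fitted folds. In the fitted test with the 10 copies of each subfamily that had most counts over experiment 3 left out, all 6 subfamilies still passed in WT cells at 4 h, with log2 fold changes of 1.18 ± 0.34 for L1Md_Gf, 0.77 ± 0.23 for L1Md_F and 0.62 to 0.91 for the other subfamilies. At 2 h 3 of 6 passed, L1Md_T, L1Md_A and L1Md_F2.

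**Figure D3:**
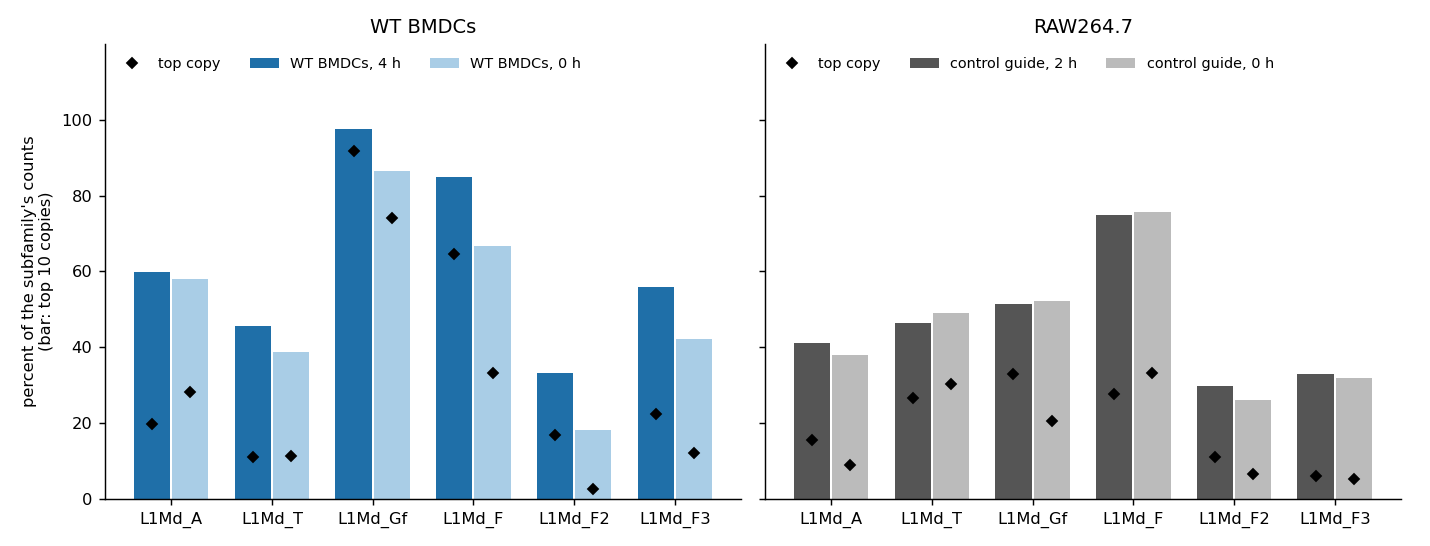
Share of each subfamily's counts (percent, vertical axis) on its 10 leading copies (bars) and on its single leading copy (diamonds), in WT dendritic cells at 4 h and 0 h and in control-guide RAW264.7 cells at 2 h and 0 h. L1Md_Gf in WT cells at 4 h has 97.5% of its counts on 10 copies and 91.9% on 1.

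Of the L1Md copies, 1168 had enough counts to be tested in experiment 3 (at least 10 counts in 3 libraries), and these held 81.1% of the L1Md counts there. In WT cells 544 copies passed at 4 h, 398 higher and 146 lower, where 42.4% of the 64924 repeat copies tested passed. At 2 h 388 passed, 282 higher and 106 lower, against 31.2% of all copies. The share of members that passed was thus near that of all copies. With gene totals alone the split moved to 283 lower of 548 at 4 h and 229 higher of 422 at 2 h. Within the low set alone 372 copies passed at 4 h and 162 at 2 h, and within the high set alone 403 and 295.

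L1Md_F2 copy 2974425 had the most counts of any L1Md copy in experiment 3. It stood at 55.7, 76.4 and 133.8 CPM in WT cells at 4 h (lowest, median and highest library) and at 0.910, 2.12 and 3.08 CPM at 0 h. The groups were far apart, with a log2 fold change of 6.04 ± 0.44 (SE, edgeR adjusted p = 1.4e-13). At 2 h the 5 WT libraries stood at 20.8, 65.002, 80.5, 168.3 and 198.6 CPM and the lowest values, 20.8 and 65.002 CPM, belong to the low set. In RAW264.7 cells with gRNA_Ctrl the same copy was at 0 in all 3 libraries at 0 h and at 0.178 to 0.345 CPM at 2 h.

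L1Md_Gf copy 4099312 stood at 18.9, 29.9 and 44.6 CPM in WT cells at 4 h and 0.925, 3.43 and 5.78 CPM at 0 h, with a log2 fold change of 3.82 ± 0.42. L1Md_T copy 2268701 stood at 7.93, 20.3 and 26.98 CPM at 4 h, against 1.42, 2.26 and 9.09 CPM at 0 h (2.86 ± 0.42), with some overlap. L1Md_A copy 1973504 had a smaller rise and a narrow spread, at 20.4, 21.6 and 26.2 CPM at 4 h, against 11.4, 14.3 and 15.9 CPM at 0 h (1.34 ± 0.14).

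Some copies had almost no counts at 0 h and were counted at 4 h. Such copies could reach the minimum for testing only through groups other than WT cells at 0 h. They were named as large rises without overlap, so this pattern follows from the choice. L1Md_T copy 266402 stood at 1.45, 1.77 and 2.70 CPM at 4 h, with 622 counts in the 6 libraries, and had 4 counts in the 6 libraries at 0 h, for a log2 fold change of 7.68 ± 0.56. L1Md_F2 copy 2684165 stood at 0.522 to 1.38 CPM at 4 h and had no count in any of the 6 WT libraries at 0 h, where a count of 0 allows up to 3 counts in a library, so no fold is given.

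Others fell. L1Md_F2 copy 3963173 stood at 0.0403, 0.155 and 0.282 CPM in WT cells at 4 h and 1.47, 4.24 and 10.1 CPM at 0 h, with a log2 fold change of -4.23 ± 0.56. This copy and L1Md_F2 copy 400792 were named as the largest falls among called copies without overlap, so their separation follows from that choice. L1Md_F2 copy 400792 fell by 3.17 on the log2 scale, to at most 0.239 CPM at 4 h, against at least 0.447 CPM at 0 h. L1Md_A copy 3847667, the L1Md copy with most counts in unstimulated WT cells, stood at 5.22, 9.25 and 17.1 CPM at 4 h, against 15.1, 29.9 and 33.7 CPM at 0 h (-0.77 ± 0.29, adjusted p = 0.030). Its subfamily rose while this copy fell.

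**Figure D4:**
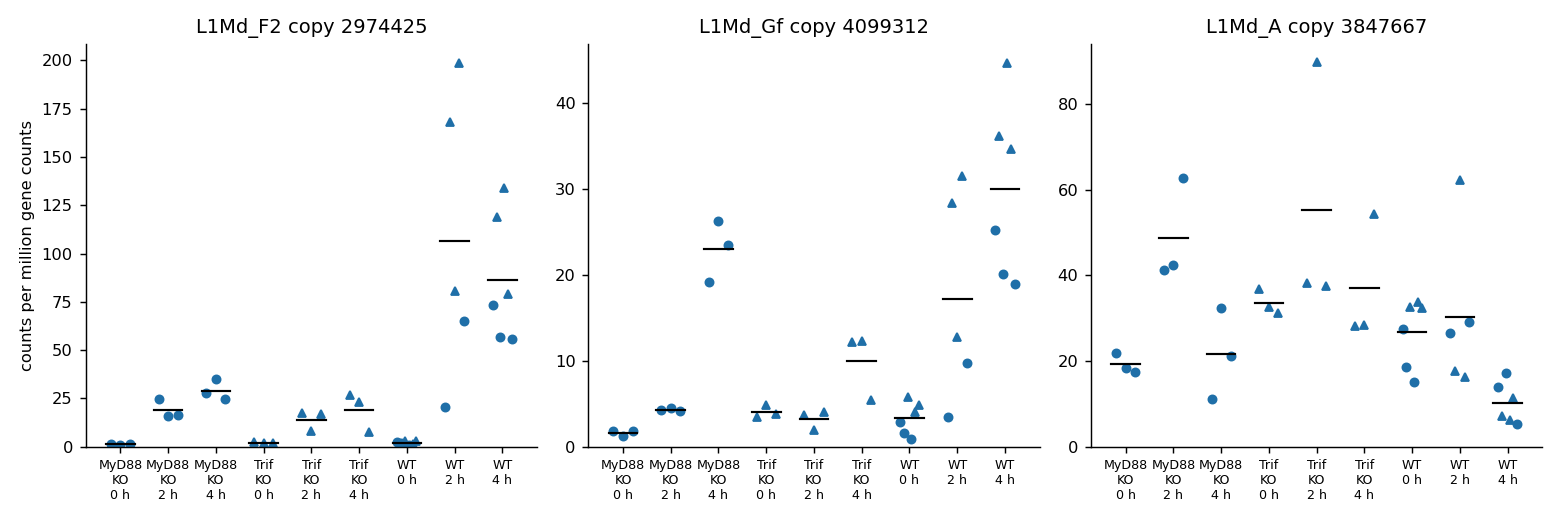
Level of 3 single copies (CPM, vertical axis, linear scale) in each library of experiment 3 by genotype and time; triangles are libraries of the high set and circles those of the low set. Black lines are means. L1Md_F2 copy 2974425 is higher at 4 h than at 0 h in every genotype, L1Md_Gf copy 4099312 reaches at most 12.3 CPM in cells labelled TrifKO at 4 h and at least 18.9 CPM in WT, and L1Md_A copy 3847667 is lower in WT at 4 h than at 0 h.

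Copies moved with the repeats beside them in the table. Repeats carry running numbers; the table does not say how they were assigned and gives no coordinates, so position and overlap with genes were not analysed here. Each tested L1Md copy was set beside the tested repeat outside L1Md with the nearest running number, a description chosen after the data were seen. Other L1Md copies were passed over in this search. Across copies, the log2 fold changes of WT cells at 4 h had a Pearson r of 0.94 with a neighbour 1 number away (n = 386), 0.88 at 2 to 5 numbers (n = 322), 0.78 at 6 to 20 (n = 217), 0.65 at 21 to 100 (n = 122) and 0.28 beyond (n = 121). Against the tested repeat 500 places on, r was -0.05 (n = 1147). Points share the same libraries, and neighbouring numbers may share reads, so copies are not independent.

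Of 286 L1Md copies called higher at 4 h that had a tested neighbour within 5 numbers, 225 had a neighbour called higher and 0 had one called lower. Of 92 called lower, 61 had a neighbour called lower and 0 had one called higher. Among 330 copies that were not called, 45 neighbours were higher and 24 lower. In control-guide RAW264.7 cells at 2 h 94 of 143 copies called higher had a neighbour called higher, and 15 of 34 called lower had one called lower. In MyD88KO cells at 4 h these were 96 of 154 and 4 of 17, and in cells labelled TrifKO at 4 h 19 of 44 and 6 of 12. No called copy of these comparisons had a neighbour called the other way. Around L1Md_Gf copy 4099312 all 14 tested repeats within 10 numbers were called higher at 4 h in WT cells, with log2 fold changes of 3.38 to 4.49, and they belonged to 13 subfamilies of SINE, LTR and LINE elements, L1Md_A copy 4099313 among them. Around L1Md_F2 copy 2974425 all 11 tested repeats were called higher (5.05 to 7.11). Whether the counts come from transcripts that start in an L1 or from longer ones that run through it was not tested.

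**Figure D5:**
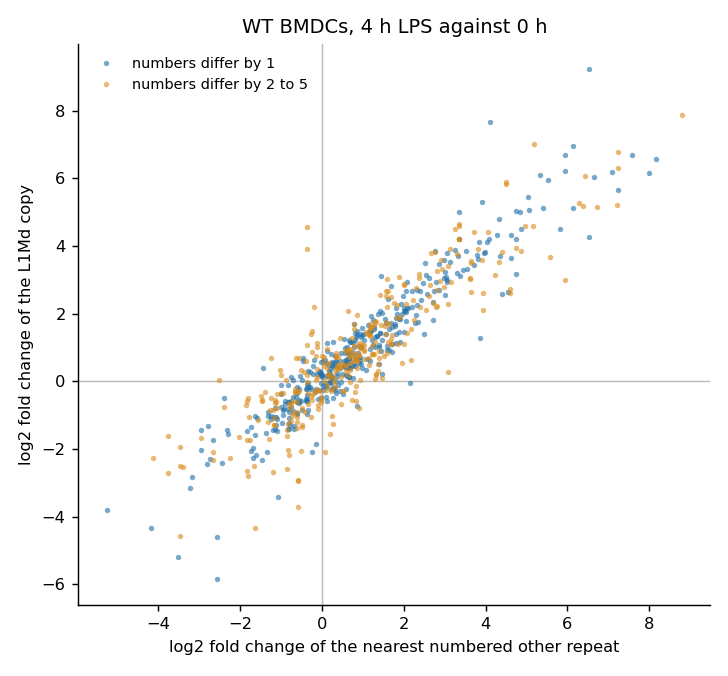
Log2 fold change of each tested L1Md copy (vertical axis) against that of its nearest tested repeat outside L1Md within 5 running numbers (horizontal axis), WT cells at 4 h against 0 h, with colours for neighbours 1 number and 2 to 5 numbers away. Points follow the diagonal, with r of 0.94 for neighbours 1 number away.

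The young subfamilies rose in MyD88KO cells at 4 h as well. L1Md_Gf stood at 20.4, 24.9 and 27.4 CPM at 4 h, against 2.39, 2.40 and 3.06 CPM at 0 h, with no overlap and a log2 fold change of 3.55 ± 0.56 (edgeR adjusted p = 1.1e-05). L1Md_F followed (1.78 ± 0.31), then L1Md_A (0.93 ± 0.22), L1Md_T (0.74 ± 0.20), L1Md_F2 (0.64 ± 0.24) and L1Md_F3 (0.60 ± 0.22). All 6 passed, against 36.9% of all subfamilies, and 3 of 6 passed with gene totals alone (L1Md_Gf, L1Md_F and L1Md_A), where the median gene shifted by -0.40. The ratio of summed L1Md at 4 h to 0 h was 1.33 in CPM and 1.14 as a share of all counts on repeats. With the 10 copies of each subfamily that had most counts left out, 1 of 6 passed at 4 h, L1Md_F2 (0.53 ± 0.21), and L1Md_Gf was at 0.03 ± 0.51. At 2 h 1 passed, L1Md_A (0.96 ± 0.22, adjusted p = 0.0035), against 7.72% of all subfamilies. Of single copies 203 passed at 4 h, 181 higher and 22 lower, against 15.6% of all copies, and 88 at 2 h, 79 higher and 9 lower, against 7.15%. Under gene totals alone 135 of 172 were higher at 4 h and 56 of 71 at 2 h. The 2 h count was 52 without MyD88KO 0 h replicate 2 and 55 without MyD88KO 2 h replicate 1, and 148 with the cohort block, where 3 subfamilies passed at 2 h. In experiment 3 the cohort block means library set and cohort number together.

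In MyD88KO cells L1Md_F2 copy 2974425 stood at 24.6, 27.5 and 35.1 CPM at 4 h, against 0.959, 1.25 and 1.29 CPM at 0 h (log2 fold change 4.98 ± 0.60), and L1Md_Gf copy 4099312 at 19.2, 23.5 and 26.3 CPM at 4 h, against 1.198, 1.77 and 1.79 CPM at 0 h (4.196 ± 0.603). Both were clear of overlap. L1Md_F2 copy 921538 stood at 0.789, 2.49 and 3.64 CPM at 4 h and had 4 counts in all at 0 h (6.72 ± 1.06). L1Md_T copy 324161 stood at 1.42 to 3.12 CPM at 4 h and had no count in the 3 MyD88KO libraries at 0 h, so no fold is given. Copies 921538 and 324161 were named as large rises without overlap, so their near absence at 0 h follows from that choice. L1Md_A copy 3847667 rose in MyD88KO cells at 2 h, with 41.3, 42.4 and 62.7 CPM at 2 h, against 17.4, 18.4 and 21.9 CPM at 0 h (1.56 ± 0.42, adjusted p = 0.015). At 4 h it stood at 11.1, 21.1 and 32.3 CPM there and did not pass (0.49 ± 0.41), nor did it in WT cells at 2 h (0.55 ± 0.30), and its responses in MyD88KO and WT cells did not pass as different at 2 h or 4 h (1.01 ± 0.51 and 1.26 ± 0.50, adjusted p = 0.70 and 0.45).

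In cells labelled TrifKO no young subfamily passed at 2 h or 4 h with edgeR or with DESeq2, against 6.35% and 10.4% of all subfamilies. At an unadjusted p under 0.05 there was 1 at 2 h and 2 at 4 h, and L1Md_Gf stood at 6.61, 13.5 and 13.7 CPM at 4 h, against 4.69, 4.71 and 6.32 CPM at 0 h (log2 fold change 1.33 ± 0.52, adjusted p = 0.098). The 6.61 CPM at 4 h and the 6.32 CPM at 0 h both belong to replicate 3, whose 4 h library had 2.46 CPM of Ticam1. With only the compared groups in the fit, 4 passed at 4 h and 2 at 2 h. With set and cohort number as a block 3 passed at 4 h, L1Md_Gf (1.24 ± 0.30), L1Md_A (0.51 ± 0.14) and L1Md_T (0.34 ± 0.11), and 2 at 2 h, L1Md_A and L1Md_T. With WT libraries of a cohort summed 2 passed at 4 h and 1 at 2 h. Single copies did pass, 73 at 4 h (58 higher, 15 lower; 5.41% of all copies) and 86 at 2 h (61 higher, 25 lower; 5.22% of all copies). Scaled by gene totals alone, 45 of 76 were higher at 4 h and 44 of 96 at 2 h, and with the cohort block 162 copies passed at 4 h and 161 at 2 h. Leaving out single libraries lowered the 4 h count to 38 (TrifKO 4 h replicate 1), 48 (TrifKO 4 h replicate 2), 42, 41 and 41 (TrifKO 0 h replicates 1, 2 and 3), and the 2 h count to 51 and 42 (TrifKO 2 h replicates 1 and 2) and 46, 43 and 46 (TrifKO 0 h replicates 1, 2 and 3).

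L1Md_F2 copy 2974425 rose in cells labelled TrifKO too, with 7.43, 23.2 and 26.5 CPM at 4 h, against 1.73, 2.06 and 2.23 CPM at 0 h (3.48 ± 0.55, adjusted p = 9.8e-05). The lowest of the 4 h values belongs to replicate 3, the library with 2.46 CPM of Ticam1. L1Md_F2 copy 1816867 stood at 1.37, 1.71 and 1.74 CPM at 4 h and 0.0421 to 0.0883 CPM at 0 h (4.83 ± 0.96), and L1Md_A copy 1130593 at 0.971, 5.19 and 8.31 CPM at 4 h, against 0.192 to 0.295 CPM at 0 h (4.56 ± 0.86). Copies 1816867 and 1130593 were named as large rises without overlap in cells labelled TrifKO, so their separation there follows from that choice. WT cells gave 5.06 ± 0.63 and 4.64 ± 0.62 for these copies. L1Md_F2 copy 3963173 fell in all 3 genotypes at 4 h, by 4.22 ± 0.78 in cells labelled TrifKO, 3.63 ± 0.72 in MyD88KO and 4.23 ± 0.56 in WT on the log2 scale.

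The responses themselves were then compared with that of WT cells, and both comparisons share the WT libraries. For cells labelled TrifKO the response at 4 h was smaller than the WT response in 4 of 6 young subfamilies, against 16.6% of all subfamilies. The differences in log2 fold change were -2.19 ± 0.63 for L1Md_Gf (edgeR adjusted p = 0.014), -1.86 ± 0.38 for L1Md_F, -0.83 ± 0.29 for L1Md_F2 and -0.82 ± 0.27 for L1Md_F3, and they missed the threshold for L1Md_T (-0.68 ± 0.24, adjusted p = 0.053) and L1Md_A (-0.45 ± 0.26). Against WT libraries of the same set, 5 passed at 4 h, and with the 10 copies of each subfamily that had most counts left out 0 did. By gene totals alone 1 passed, L1Md_F (-1.43), with L1Md_Gf at -1.76 (adjusted p = 0.057). The count was 2 without TrifKO 4 h replicate 2, without any 1 of the 3 TrifKO 0 h libraries or without WT 4 h library H1 or H2, and 1 without TrifKO 4 h replicate 3. At 2 h L1Md_Gf was the single subfamily to differ (-2.54 ± 0.65, adjusted p = 0.025), against 2.33% of all subfamilies. It was 4 subfamilies against WT libraries of the same set, 0 without any 1 of the 3 TrifKO 2 h libraries, TrifKO 0 h replicate 3 or WT 2 h library H1 or H2, and 3 without WT 2 h library L1. With the cohort block 2 passed at 2 h.

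Of the 1168 single copies tested, 35 had a response at 4 h below that of WT and 0 one above it in cells labelled TrifKO. At 2 h these were 14 and 0. Over all copies 2.37% differed at 4 h and 1.1% at 2 h, in either direction, so the share of members was near that of all copies. The split by direction over all copies is not given here, so the split among members is not read as particular to L1Md. With gene totals alone the 4 h split was 18 below and 8 above. With the cohort block the counts were 91 at 4 h and 35 at 2 h. The 4 h count was 20 without TrifKO 4 h replicate 3. The 2 h count was 9 and 5 without TrifKO 2 h replicates 2 and 3, 8 and 9 without TrifKO 0 h replicates 2 and 3, 8 without WT 2 h library H1 or H2, and 28 without L1. L1Md_F2 copy 2974425 differed by -2.56 ± 0.63 at 4 h (adjusted p = 0.019) and by -3.04 ± 0.65 at 2 h. L1Md_F2 copy 3718114 differed by -4.27 ± 0.81 at 4 h, with 0.124, 0.231 and 0.370 CPM in cells labelled TrifKO and 2.21, 2.46 and 3.36 CPM in WT cells, and L1Md_F3 copy 698728 by -4.32 ± 1.01. L1Md_F2 copy 1419154 differed by -4.12 ± 1.02 at 2 h, and L1Md_F2 copy 323776 by -5.88 ± 1.14.

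For MyD88KO cells 0 young subfamilies differed from the WT response at 2 h or 4 h with edgeR or DESeq2 (0 at an unadjusted p under 0.05), where 0.106% and 2.75% of all subfamilies did. The differences ran from -0.51 ± 0.29 for L1Md_F2 to 0.03 ± 0.62 for L1Md_Gf at 4 h, and from -1.26 ± 0.65 for L1Md_Gf to 0.20 ± 0.27 for L1Md_A at 2 h, so these errors are wide for L1Md_Gf and a p that misses the threshold does not show that the responses are alike. Of single copies 0 differed at 2 h (97 at an unadjusted p under 0.05, 2 with DESeq2; 0.00462% of all copies) and 1 at 4 h (113 unadjusted, 11 with DESeq2; 0.126% of all copies). With the cohort block 3 differed at 2 h and 19 at 4 h. The copy called at 4 h was L1Md_F2 copy 4306302, named after its values were seen, with 0.288, 0.325 and 0.469 CPM in MyD88KO cells at 4 h and 0.215, 0.304 and 0.428 CPM at 0 h, against 0.0201 to 0.106 CPM in WT cells at 4 h and 0.328 to 0.837 CPM at 0 h (difference 2.95 ± 0.65, adjusted p = 0.046). That call was lost without any 1 of the MyD88KO 4 h libraries, MyD88KO 0 h replicate 2 or 3, WT 4 h library L1, L2, H1 or H2, or WT 0 h library L3, H1, H2 or H3, and became 2 without WT 0 h library L2 or WT 4 h library L3.

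Before LPS no young subfamily passed between the genotypes. MyD88KO and WT cells differed at 0 h in 0 young subfamilies (1 unadjusted, 0 with DESeq2; 0% of all subfamilies), and cells labelled TrifKO and WT cells in 0 (0 unadjusted, 0 with DESeq2; 0% of all subfamilies). Of single copies 0 differed in cells labelled TrifKO (56 unadjusted, 0 with DESeq2; 0% of all copies). In MyD88KO cells 3 copies differed, 1 higher and 2 lower, against 0.157% of all copies. L1Md_F2 copy 210745 stood at 2.16, 2.82 and 3.38 CPM in MyD88KO cells and had no count in the 6 WT or 3 TrifKO-labelled libraries at 0 h (adjusted p = 1.0e-11, no fold given), and it stayed at 1.59 to 2.63 CPM in MyD88KO cells at 2 h. L1Md_F2 copy 4676808 showed the reverse, with 4 counts in the 3 MyD88KO libraries and 3.48, 6.37 and 7.58 CPM in WT cells (-7.73 ± 0.54). Neither copy could reach the minimum for testing through the group with few or no counts. Both were named as large changes without overlap among called copies, so this pattern follows from that choice. L1Md_F3 copy 3847342 was lower by 1.74 ± 0.39 on the log2 scale (adjusted p = 0.046). All 8 tested repeats within 10 numbers of copy 210745 were called higher with it. Around copy 4676808 2 of 7 were called lower and the other 5 went the opposite way, with a median log2 fold change of 1.94 over the 7.

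No young subfamily passed for loss of Suv39h1 in unstimulated dendritic cells. Suv39h1KO and WT cells differed in 0 of 6 (0 unadjusted, 0 with DESeq2; 0.53% of all 944 subfamilies), with log2 fold changes from -0.14 ± 0.29 for L1Md_Gf to 0.05 ± 0.21 for L1Md_A. Suv39h1KO_IfnarKO and IfnarKO cells differed in 0 of 6 as well (0 unadjusted, 0 with DESeq2; 0.636% of all), with log2 fold changes from -0.22 ± 0.21 for L1Md_A to -0.08 ± 0.14 for L1Md_T. For L1Md_F2, the most abundant, the log2 fold change was -0.12 ± 0.16 in the first comparison and -0.16 ± 0.16 in the second (SE), and a p that misses the threshold does not show that the genotypes are alike.

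Single copies of experiment 2 numbered 988 tested, which held 78.1% of its L1Md counts. Between Suv39h1KO and WT cells 9 copies differed, 6 higher and 3 lower, against 0.257% of all 59202 copies. The cohort number paired the libraries of this experiment, and with it as a block 22 copies differed. The count was 5 without WT replicate 2 or 3. L1Md_A copy 149619 stood at 0.881, 0.945 and 1.75 CPM in Suv39h1KO cells, with 279 counts, and had 1 count in all 3 WT libraries (adjusted p = 8.2e-06). In cells without Ifnar it stood at 0.259, 0.486 and 0.516 CPM in Suv39h1KO_IfnarKO libraries and had no count in the 3 IfnarKO libraries. This copy could reach the minimum for testing only through libraries without Suv39h1. It was named as a large rise without overlap among called copies, so its near absence in WT cells follows from that choice. The 3 tested repeats around it were also called higher, by 4.10 to 7.94. L1Md_F2 copy 2585618 stood at 0, 0.241 and 0.441 CPM in Suv39h1KO cells and 0.791, 2.26 and 2.42 CPM in WT cells (-2.91 ± 0.56, adjusted p = 0.023), but at 0.914 to 1.24 CPM in Suv39h1KO_IfnarKO and 0.923 to 1.02 CPM in IfnarKO cells (0.16 ± 0.51).

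Between Suv39h1KO_IfnarKO and IfnarKO cells 6 copies differed, 5 higher and 1 lower, against 0.235% of all copies (20 with the cohort block). The one that fell was L1Md_F2 copy 2306089, with 0.446, 0.666 and 0.984 CPM in Suv39h1KO_IfnarKO and 1.98, 2.04 and 2.08 CPM in IfnarKO cells (-1.54 ± 0.29, adjusted p = 0.024), a direction also seen in Suv39h1KO against WT cells without passing (-0.99 ± 0.29, adjusted p = 0.52). IfnarKO and WT cells differed in 0 subfamilies (0 unadjusted, 0 with DESeq2; 0.106% of all) and 0 copies (43 unadjusted, 0 with DESeq2, 2 with the cohort block; 0.0405% of all). Suv39h1KO_IfnarKO and Suv39h1KO cells differed in 0 subfamilies (1 unadjusted, 0 with DESeq2; 0.106% of all) and 0 copies (57 unadjusted, 2 with DESeq2, 7 with the cohort block, 1 without Suv39h1KO replicate 2; 0.0726% of all).

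RAW264.7 cells also had more young L1 counts after 2 h of LPS, by log2 fold changes of 0.37 to 0.87 with gRNA_Ctrl. With gRNA_Ctrl all 6 subfamilies passed, against 55.8% of 943, led by L1Md_F, with 25.3, 26.5 and 27.6 CPM at 2 h, against 16.2, 16.4 and 16.7 CPM at 0 h (log2 fold change 0.87 ± 0.08). The other log2 fold changes were 0.57 ± 0.17 for L1Md_Gf, 0.57 ± 0.06 for L1Md_T, 0.51 ± 0.05 for L1Md_F2, 0.45 ± 0.07 for L1Md_F3 and 0.37 ± 0.07 for L1Md_A. L1Md_Gf, which led in dendritic cells, stood at only 2.12 to 2.63 CPM at 2 h and 1.68 to 1.97 CPM at 0 h here, and its dendritic cell copy 4099312 had no count in the control-guide libraries at 0 h. The 6 subfamilies also all passed with gRNA_1 (57.4% of all) and with gRNA_2 (61.6% of all). With gene totals alone 5 of 6 passed with gRNA_Ctrl, where the median gene shifted by -0.18. Counts on all transposable elements rose too with gRNA_Ctrl, from a mean of 47370 CPM at 0 h to 56827 CPM at 2 h. The ratio of summed L1Md at 2 h to 0 h was 1.26 in CPM and 1.05 as a share of all counts on repeats. Scaled by totals of the repeat table, fewer of the 6 subfamilies passed with gRNA_1, as given below.

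Of 1055 copies tested in experiment 5, which held 76.6% of its L1Md counts, 292 passed at 2 h with gRNA_Ctrl (239 higher, 53 lower; 20.7% of all 63366 copies), 289 with gRNA_1 (238 and 51; 21.4%) and 308 with gRNA_2 (253 and 55; 22%). Scaled by gene totals alone, 200 of 285 were higher with gRNA_Ctrl, 198 of 275 with gRNA_1 and 199 of 272 with gRNA_2. L1Md_F2 copy 180733 stood at 58.1, 61.4 and 63.0 CPM at 2 h, against 28.6, 29.2 and 29.8 CPM at 0 h with gRNA_Ctrl (1.24 ± 0.09). L1Md_F2 copy 1501244 had 1.54, 1.83 and 2.64 CPM at 2 h and 4 counts in all at 0 h (6.30 ± 0.42). L1Md_F2 copy 1501243 had 1.08, 1.86 and 2.21 CPM at 2 h and 3 counts in all at 0 h, and L1Md_F2 copy 1906353 had 0.464, 1.91 and 1.94 CPM at 2 h and 2 counts at 0 h, so no fold is given for either. Copies 1501244, 1501243 and 1906353 were named as large rises without overlap. They could not reach the minimum for testing through control-guide libraries at 0 h, so their near absence there follows from the choice. L1Md_F2 copy 939364 fell, with 0.393, 0.431 and 0.583 CPM at 2 h, against 2.56, 3.07 and 3.30 CPM at 0 h (-2.48 ± 0.25), and L1Md_F2 copy 1910902 fell by 0.74 ± 0.10 on the log2 scale.

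The L1Md copies with counts were shared in part between the 2 cell types. Of the 50 copies with most counts in unstimulated control-guide RAW264.7 cells and the 50 in unstimulated WT dendritic cells, 19 were shared. Control-guide cells at 0 h had counts on 9759 copies, of which 4676 (47.9%) also had counts in WT cells at 0 h, and these were 30.8% of the 15196 copies with counts there. The strains also differ between these groups, as does depth, with 3 libraries and 111249 L1Md counts in control-guide cells against 6 and 234152 in WT cells. The overlap over all repeat copies, or between groups of 1 cell type, is not given here. How much of the incomplete sharing belongs to the cell type was therefore not tested. L1Md_T copy 4492153, at 41.01 to 52.3 CPM in control-guide cells, had no count in any WT dendritic cell library of experiment 3 at 0 h.

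The guides differed from gRNA_Ctrl before LPS, and they share the control libraries. With gRNA_1 1 subfamily was lower at 0 h, L1Md_T, with 113.7, 117.6 and 123.2 CPM against 141.7, 149.6 and 161.1 CPM with gRNA_Ctrl (-0.34 ± 0.06, edgeR adjusted p = 8.4e-04), where 1.7% of all subfamilies differed. With gRNA_2 2 were lower, L1Md_T (118.3, 126.6 and 136.1 CPM; -0.24 ± 0.06, adjusted p = 0.019) and L1Md_F2 (-0.18 ± 0.05, adjusted p = 0.034), where 5.2% of all differed. That count was 0 without gRNA_2 0 h replicate C1 or C2 or gRNA_Ctrl 0 h replicate C2, and 1 without gRNA_Ctrl 0 h replicate C3. With the 10 copies of each subfamily that had most counts left out, 0 passed with either guide, with L1Md_T at -0.21 ± 0.06 (adjusted p = 0.084) for gRNA_1 and -0.15 ± 0.06 (adjusted p = 0.14) for gRNA_2. Scaled by totals of the repeat table, L1Md_T passed with gRNA_1 (-0.27 ± 0.04) and 0 passed with gRNA_2. With the cohort block 2 passed with gRNA_1. A single copy, L1Md_T copy 4492153, taken as the L1Md_T copy with the largest fall, made up 59.2% of the L1Md_T difference with gRNA_1 and 66.7% of that with gRNA_2.

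That copy, L1Md_T copy 4492153, stood at 26.4, 26.9 and 27.02 CPM with gRNA_1, 25.8, 32.3 and 32.5 CPM with gRNA_2 and 41.01, 44.9 and 52.3 CPM with gRNA_Ctrl (-0.78 ± 0.11 and -0.60 ± 0.11 for gRNA_1 and gRNA_2). All 18 tested repeats within 10 numbers of it were lower with gRNA_1, 10 of them past the threshold. In all 12 copies differed with gRNA_1, 4 higher and 8 lower (0.245% of all copies), and 15 with gRNA_2, 3 higher and 12 lower (0.363% of all copies). The gRNA_2 count was 9 without gRNA_2 0 h replicate C2 or gRNA_Ctrl 0 h replicate C2. L1Md_F2 copy 180733 was lower with both, at 17.4 to 18.9 CPM with gRNA_1, 18.4 to 22.6 CPM with gRNA_2 and 28.6 to 29.8 CPM with gRNA_Ctrl (-0.68 ± 0.09 and -0.52 ± 0.09). L1Md_F2 copy 239958 was higher with gRNA_1, at 8.17, 8.72 and 9.26 CPM, and at 0.675 to 0.841 CPM with gRNA_2 and 0.410 to 0.616 CPM with gRNA_Ctrl (4.18 ± 0.19 and 0.66 ± 0.22, the second with adjusted p = 0.30). L1Md_F2 copy 1915728 was lower with both guides (-2.56 ± 0.31 and -1.36 ± 0.27), and L1Md_F2 copy 3450185 with gRNA_2 (-2.31 ± 0.40).

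No difference in the response to LPS passed between guides. For gRNA_1 against gRNA_Ctrl 0 subfamilies (0 unadjusted, 0 with DESeq2; 0% of all) and 0 copies (68 unadjusted, 0 with DESeq2; 0% of all) had another response, and for gRNA_2 0 subfamilies (0 unadjusted, 0 with DESeq2; 0% of all) and 0 copies (78 unadjusted, 0 with DESeq2; 0% of all). The differences of the subfamilies ran from -0.16 ± 0.23 for L1Md_Gf with gRNA_2 to 0.05 ± 0.07 for L1Md_F2 with gRNA_2.

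Genes known to act on L1 were measured beside the copies, namely 14 silencing genes, 8 restriction genes and 2 activators, 24 in all. In WT cells at 4 h 6 of 8 restriction genes rose and 2 fell, 8 of 14 silencing genes fell and 2 rose, and 1 of 2 activators fell, where 65.1% of all genes passed. Mov10, an RNA helicase that restricts L1, stood at 91.6, 118.5 and 148.9 CPM at 4 h, against 10.6, 17.1 and 19.5 CPM at 0 h (log2 fold change 3.53 ± 0.23). Trex1, a DNA exonuclease (3.25 ± 0.17), Adar, an RNA adenosine deaminase (2.45 ± 0.13), and Samhd1, a dNTP triphosphohydrolase (2.37 ± 0.16), rose with it. At 2 h 13 of 24 passed, 5 higher and 8 lower (45.9% of all genes), led by Trex1 (2.76 ± 0.17), Mov10 (1.39 ± 0.22) and Zc3hav1, the zinc finger antiviral protein (1.33 ± 0.13). By gene totals alone all 24 passed at 4 h with 6 of them higher, and 20 at 2 h with 4 higher.

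MyD88KO cells at 4 h had 15 of 24 called, 9 higher and 6 lower (34.1% of all genes), with Trex1 (3.15 ± 0.24), Mov10 (2.85 ± 0.31), Adar (2.10 ± 0.18) and Samhd1 (1.71 ± 0.22) leading. That count was 9 without MyD88KO 4 h replicate 3, and under gene totals alone 6 were higher and 10 lower. Cells labelled TrifKO had 9 called, 5 higher and 4 lower (25.9% of all genes; 3 higher and 7 lower under gene totals alone), with Trex1 at 1.23 ± 0.23, and Adar and Zc3hav1 at 0.81 ± 0.17 and 0.81 ± 0.18. Mov10 stood at 18.03 to 26.6 CPM at 4 h there, against 15.7 to 17.4 CPM at 0 h. In Suv39h1KO cells a single gene was called, Suv39h1 itself (-7.80 ± 0.43; 0.209% of all genes). In RAW264.7 cells with gRNA_Ctrl 13 passed at 2 h, 3 higher and 10 lower (51.6% of all genes; 2 higher and 18 lower under gene totals alone), with Trex1 at 1.86 ± 0.12, Zc3hav1 at 0.72 ± 0.06 and Runx3 lower by 1.10 on the log2 scale. Their part in the levels of L1Md was not tested.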

How the data were processed

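RNA sequencing libraries (65, in 19 groups) were made from DNase-treated RNA with a stranded polyA kit, per the labels' protocols. The deposited tables hold raw counts per gene and per repeat copy. STAR, HOMER, DESeq2 and the build mm10 are named in the submitters' processing notes; how reads with several matches were counted, and whether strand was used, is not given in the sources used here, and young L1 copies are near-identical, so counts of single copies are uncertain.

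Copies were summed by subfamily. Levels are counts per 1000000 gene counts (CPM). Tests used edgeR 4.0.16 in R 4.3.3 (quasi-likelihood, gene totals and TMM factors of the gene table, 1 fit per experiment over all its groups), with p-values adjusted by Benjamini-Hochberg over all 943 to 945 subfamilies, 59202 to 64924 copies or all genes. Copies needed 10 counts in 3 libraries. DESeq2 1.42.0, other scalings, minimums, a cohort block and left-out libraries were alternatives; the fits were tested on simulated data. No 2 libraries of a group agreed within counting noise: the lowest chi-square per gene over 88 pairs was 5.08. Gene counts of 36879570 to 95292653 per library set the precision, and floors cover counting error only.

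The cohort numbers of the titles paired the libraries of experiment 2, where all 18 same-numbered pairs had correlated deviations (mean r 0.64). In experiment 3 the block was library set and cohort number together, so it also takes up the difference between the sets. In experiments 3 and 5 not every pair of the same block had correlated deviations, and the labels do not say what a cohort is. Values with the block are therefore given beside results that it changes. Copies named were the 5 with most counts per experiment and, per comparison, the 3 largest rises and 2 largest falls among called copies whose groups did not overlap and whose higher mean was at least 1 CPM; genes were the called members, up to 4 by size, of which some are not reported here. In copies named by their change, the separation of the compared groups follows from this rule. The members and lists were chosen with earlier results of these data known. Comparisons of 4 h with 2 h are not reported here.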

Additional observations from a re-analysis of the deposited data

Results flagged for a closer look

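In 5 WT libraries at 2 h of LPS, library H3 held 62.32 CPM of L1Md_A copy 3847667, while the others held 16.17 to 29.07 CPM. It was the 1 library that stood apart in 57 groups of values, over 12 copies, the 6 subfamilies and the L1Md sum at each time. Chance flags about 1 in 20 groups, so 1 flag in 57 is no more than chance would give.

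Responses of cells labelled TrifKO and of WT cells to LPS differed by a test of the difference itself, all in the direction of a smaller response in cells labelled TrifKO. At 2 h the difference in log2 fold change was -2.538 for L1Md_Gf, -4.122 for L1Md_F2 copy 1419154 and -5.882 for L1Md_F2 copy 323776. At 4 h it was -2.191 for L1Md_Gf, -1.862 for L1Md_F, -0.8334 for L1Md_F2, -0.8243 for L1Md_F3, -4.271 for L1Md_F2 copy 3718114 and -4.318 for L1Md_F3 copy 698728.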

How the results depend on the processing

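Of 808 values of 45 subfamily results under other settings, 700 kept direction and side of the threshold, 107 no longer passed and 1 reversed: L1Md_Gf in MyD88KO cells at 4 h without the 10 copies of each subfamily with most counts in unstimulated controls (-0.1287). Of 917 values of 60 named copies, 867 kept and 50 no longer passed. The causes were not tested. Counts of called members are given below where they moved by over 1.5 times, as value against reported value.

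With DESeq2, subfamilies were 2 against 1 for gRNA_1 against gRNA_Ctrl, and copies were 2 against 0 and 11 against 1 for the MyD88KO response minus WT (2 h, 4 h), 27 against 14 and 54 against 35 for TrifKO minus WT, 7 against 3 for MyD88KO against WT at 0 h, and 2 against 0 for Suv39h1KO_IfnarKO against Suv39h1KO. With gene totals alone, subfamilies were 3 against 6 in WT at 2 h, 3 against 6 in MyD88KO at 4 h and 1 against 4 for TrifKO minus WT at 4 h, copies 3 against 1 for MyD88KO minus WT at 4 h, and control genes 20 against 13 in WT and in gRNA_Ctrl cells at 2 h. A minimum of 20 counts gave 353 against 544 copies in WT at 4 h, by fewer copies tested, and one of 5 gave 0 against 1 for MyD88KO minus WT at 4 h.

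With the compared groups alone, subfamilies were 3 against 1 (MyD88KO 2 h), 2 and 4 against 0 (TrifKO 2 h and 4 h), 0 against 1 (TrifKO minus WT 2 h) and 2 against 1 (gRNA_1), and copies 153 against 86 and 148 against 73 (TrifKO 2 h, 4 h), 5 against 14 (TrifKO minus WT 2 h), 5 against 9 (Suv39h1KO) and 1 against 0 (Suv39h1KO_IfnarKO against Suv39h1KO). With the replicate block, subfamilies were 3 against 1, 2 and 3 against 0, 2 against 1 and 2 against 1 in the same comparisons, and copies 148 against 88 (MyD88KO 2 h), 161 against 86 and 162 against 73 (TrifKO 2 h, 4 h), 3 against 0 and 19 against 1 (MyD88KO minus WT), 35 against 14 and 91 against 35 (TrifKO minus WT), 22 against 9, 20 against 6, 2 against 0 and 7 against 0 in experiment 2. Pairs of the same block correlated over 0.1 in 68 of 85 cases in experiment 3 (same set and cohort number) and 40 of 45 in experiment 5 (same cohort number). The block moved no other count of calls by over 1.5 times.

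As a share of all repeat counts, L1Md ratios were 1.142 against 1.331 (MyD88KO 4 h) and 1.051 against 1.262 (gRNA_Ctrl 2 h). With totals of the repeat table, subfamilies were 1 against 0 (TrifKO 2 h), 3 against 1 (TrifKO minus WT 2 h), 3 against 6 (gRNA_1 2 h) and 0 against 2 (gRNA_2 against gRNA_Ctrl), and copies 2 against 1 (MyD88KO minus WT 4 h) and 1 against 0 (Suv39h1KO_IfnarKO against Suv39h1KO). With WT libraries of a cohort summed, subfamilies were 3 against 1 (MyD88KO 2 h), 1 and 2 against 0 (TrifKO 2 h, 4 h) and 3 against 1 (TrifKO minus WT 2 h). With WT libraries of the high set, TrifKO minus WT at 2 h gave 4 against 1 subfamilies and 25 against 14 copies; with those of the low set, WT at 2 h gave 162 against 388 copies and MyD88KO minus WT at 4 h 0 against 1.

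Without the 10 copies of each subfamily with most counts, subfamilies were 3 against 6 (WT 2 h), 0 against 1 and 1 against 6 (MyD88KO 2 h, 4 h), 0 against 1 and 0 against 4 (TrifKO minus WT), 0 against 1 (gRNA_1) and 0 against 2 (gRNA_2). Without those with most counts in unstimulated controls they were 0, 3, 0, 1, 0 and 0 from MyD88KO at 2 h on, in the same order.

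Leaving out 1 library gave, for subfamilies, 0 to 3 and 1 to 5 (TrifKO minus WT 2 h, 4 h) and 0 to 2 (gRNA_2 against gRNA_Ctrl); for copies, 52 to 75 (MyD88KO 2 h), 42 to 76 and 38 to 72 (TrifKO 2 h, 4 h), 0 to 2 (MyD88KO minus WT 4 h), 5 to 28 and 20 to 43 (TrifKO minus WT), 5 to 11 (Suv39h1KO), 0 to 1 (Suv39h1KO_IfnarKO against Suv39h1KO) and 9 to 12 (gRNA_2); and for control genes 9 to 14 (MyD88KO 4 h). At the minimum used, 988 to 1168 of 126672 copies had enough counts to be tested.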
